A study of Homo sapiens with 6 samples.

Results

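The genes of fatty acid synthesis and lipid droplets were compared between Hep-G2 cells depleted of calmegin and control cells. Hep-G2 is an established human liver cancer line, and calmegin, the product of CLGN, is a chaperone of the endoplasmic reticulum. The set was chosen by name and held 38 of the 58735 genes in the table, each matched by its symbol to 1 row. These were enzymes that make, elongate and desaturate fatty acids, enzymes that join them to glycerol, proteins on the droplet surface, the lipases and their inhibitor, and a few regulators and carriers.

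RNA was sequenced from 3 libraries of sh-NC cells, which carried a control hairpin and which the labels call WT, and from 3 libraries of sh-CLGN cells, labelled as CLGN knock down. Per the study's methods both hairpins were delivered by lentivirus, followed by puromycin selection, so both groups had been transduced and selected. Each group rests on 1 hairpin, and the labels give all 6 libraries the same batch, 0DAY. Nothing in the labels says that libraries of a group came from separate cultures, so p-values measure only the spread between these libraries, which may be technical. Values are FPKM, fragments scaled by gene length and by library size, as deposited by the authors. The library size behind them was 0.933 to 0.953 times the reads recovered from the values in sh-NC. In sh-CLGN it was 1.07 to 1.08 times those reads, so this scale sets sh-CLGN values lower relative to their reads.

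In liver cells, acetyl units from citrate are built into palmitate by acetyl-CoA carboxylase and fatty acid synthase, then lengthened by elongases and given double bonds by desaturases. The resulting acyl chains are joined to glycerol step by step to form triacylglycerol, which is stored in droplets coated with perilipins and released again by lipases. The transcription factors SREBP-1c and ChREBP, encoded by SREBF1 and MLXIPL, are known to turn on many of these enzymes in response to insulin and to sugar.

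The hairpin's target was examined first. CLGN was measured at 24.1, 21.0 and 26.1 FPKM in sh-NC and at 9.48, 8.88 and 8.60 FPKM in sh-CLGN. It fell to 37.8% of the control mean, with a log2 fold change of -1.31 ± 0.081 (SE, adjusted p = 8.35e-06). The hepatocyte label was checked on 14 markers, all of which passed the filter, with a summed level of 9832 to 10005 FPKM in sh-NC and 9287 to 9916 FPKM in sh-CLGN. At an adjusted p of at most 0.05, 5 of these markers rose and 8 fell, beside 26.7% and 39.0% of all genes tested. The similar sums therefore hid opposite shifts. AFP rose from 2670 to 3782 FPKM and FGB to 165% of control, while ALB fell to 53.6% and TF to 32.2% of control. Among 6 adipocyte markers, which bear on several droplet genes, none passed the filter, and their summed level was 0 to 0.127 FPKM in sh-NC and 0.743 to 1.00 FPKM in sh-CLGN, with ADIPOQ and LEP listed at 0 in all 6 libraries. Over the whole table, too, more genes had a read in sh-CLGN, 26814 to 27006 against 23578 to 23793 in sh-NC, so rises near 0 were not particular to these markers. Of 9 fibroblast markers 5 were tested and all 5 were called higher, but COL1A1, COL3A1 and LUM passed the filter only through their sh-CLGN libraries. The summed level of the 9 markers went from 7.17 to 8.51 FPKM in sh-NC to 48.5 to 49.9 FPKM in sh-CLGN, while DCN, COL6A3 and THY1 had at most 3 reads in any library. Most of this sum was COL1A2, at 3.86 to 4.85 FPKM in sh-NC and 38.3 to 39.4 FPKM in sh-CLGN. The part of these markers in the results below was not tested.

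Of the 38 genes, 36 passed the filter of at least 1 FPKM in at least 3 libraries and were tested with limma among 13074 genes. At an adjusted p of at most 0.05, 8 rose and 19 fell in sh-CLGN, and 9 did not pass the test. Over all genes tested, 26.7% were called higher and 39.0% lower at that threshold, so calls in both directions were common. With a log2 fold change of at least 1 in size required as well, 1 gene rose, ELOVL7, and 6 fell, SCD, FADS1, FADS2, AGPAT2, PLIN2 and G0S2. Over all genes tested, 3.09% were called higher and 3.19% lower past both thresholds. The median log2 fold change of the 36 genes was -0.20, between -2.66 for G0S2 and 1.01 for ELOVL7, beside a median of -0.08 for all genes tested. Their summed level was 1393 to 1475 FPKM in the sh-NC libraries and 764 to 792 FPKM in the sh-CLGN libraries. In bulk RNA, fewer cells of one type and less RNA per cell cannot be told apart.

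**Figure D1:**
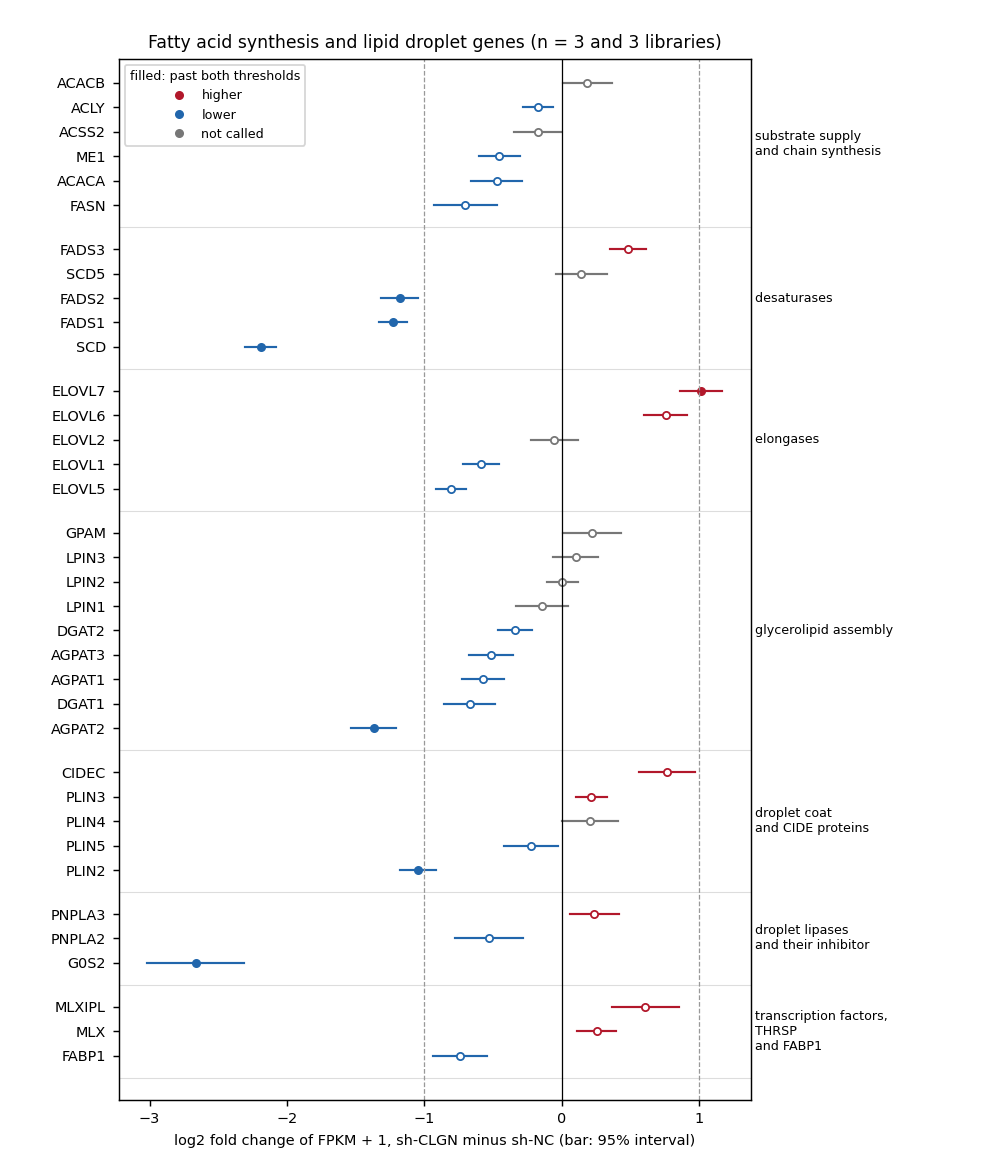
Log2 fold change of FPKM + 1 (sh-CLGN minus sh-NC, n = 3 and 3 libraries) of the 36 tested genes, grouped by role, with bars for the 95% interval of the limma fit. Red marks genes called higher, blue genes called lower and grey genes that did not pass, and filled points are past both thresholds. G0S2 at -2.66 and SCD at -2.19 lie farthest to the left, and ELOVL7 at 1.01 farthest to the right.

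Promoter windows were looked at after SCD, FADS1, FADS2, AGPAT2, PLIN2 and G0S2 fell past both thresholds. Whether these genes share control was not tested. RefSeq windows from 250 bases before to 50 bases after each annotated start on GRCh38.p14 were found for 33 of the 38 genes, 49 windows in all. They were searched on both strands for the E-box CACGTG, for the sterol response element core TCACCCCAC and for CCAAT, none of which contains another. The E-box was found in 4 of the 49 windows (8.16%), those of ELOVL5, PLIN2, MLX and LPIN2, against 7.26% of 35116 windows of all genes. The sterol element core was found in 1 window (2.04%), that of PNPLA2, against 0.430% of all windows. CCAAT was found in 23 windows (46.9%), those of 19 genes, against 34.6% of all windows. Windows of the same gene were counted separately, and those of ACLY overlap and hold the same CCAAT letters. No window was found for FASN, LPIN3, DGAT1, DGAT2 and PNPLA3, and only exact matches were counted.

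The windows of SCD, FADS2 and PLIN2 are printed because these 3 are the windows with a motif among those of the 6 genes that fell past both thresholds. They lie at chr10:100346983-100347282 (plus), chr11:61816154-61816453 (plus) and chr9:19127443-19127742 (minus) and are written 5′ to 3′ on the strand of the gene, with motifs in capitals. Counted from the start site as 0, the capitals mark CCAAT at -229 and -186 for SCD, CCAAT at 5 for FADS2 and CACGTG at -69 for PLIN2. Windows of FADS1, AGPAT2 and G0S2 held none of these letters, as did the other window of FADS2.
SCD: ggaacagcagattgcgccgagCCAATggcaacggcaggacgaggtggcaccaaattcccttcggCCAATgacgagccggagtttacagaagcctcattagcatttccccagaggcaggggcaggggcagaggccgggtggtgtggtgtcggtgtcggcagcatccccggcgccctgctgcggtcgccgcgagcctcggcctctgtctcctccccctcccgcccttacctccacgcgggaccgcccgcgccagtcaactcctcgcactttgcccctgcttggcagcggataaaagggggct
FADS2: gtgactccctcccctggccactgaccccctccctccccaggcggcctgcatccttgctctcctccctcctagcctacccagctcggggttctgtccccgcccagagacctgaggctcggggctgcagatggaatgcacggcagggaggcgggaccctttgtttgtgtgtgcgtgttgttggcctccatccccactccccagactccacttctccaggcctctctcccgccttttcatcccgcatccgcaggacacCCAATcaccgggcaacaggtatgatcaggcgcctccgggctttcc
PLIN2: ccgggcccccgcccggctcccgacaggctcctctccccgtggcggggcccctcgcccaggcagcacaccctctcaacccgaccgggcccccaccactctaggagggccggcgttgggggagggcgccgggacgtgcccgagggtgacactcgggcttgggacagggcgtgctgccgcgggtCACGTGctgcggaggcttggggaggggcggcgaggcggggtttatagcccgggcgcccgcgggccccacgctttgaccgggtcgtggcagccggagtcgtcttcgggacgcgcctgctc

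A hairpin can lower other transcripts through a seed match in the 3′ UTR. The sense letters of the hairpin target, given in the study's methods, were therefore searched as 3 heptamers in annotated 3′ UTRs of GENCODE 29, namely TACCACA for guide positions 2 to 8, ATACCAC for positions 3 to 9 and ACCACAA for positions 1 to 7. Of the 36 genes 6 held at least 1 of them (16.7%), namely SCD, G0S2, AGPAT2, ACACB, GPAM and LPIN1, against 21.5% of the 10880 genes tested with a 3′ UTR. SCD held all 3 in 1 run of letters and GPAM, which did not pass the test (log2 fold change 0.22), held all 3 at separate sites. All 3 occurred in the 3′ UTR, together or apart, in 1.66% of those genes. The sites of the 3 genes past both thresholds that held one are shown because these genes are among the deepest falls. Each is printed 5′ to 3′ on the strand of its gene, with the matched bases in capitals, at chr10:100363123-100363149 (plus), chr1:209676170-209676195 (plus) and chr9:136673648-136673672 (minus) on GRCh38, all within the 3′ UTR.
SCD: ggatttgagATACCACAAaccctgctg
G0S2: gaactgaccTACCACAAgcatccacc
AGPAT2: ggcttccaaATACCACtctgtccgg

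The desaturases had the lowest median log2 fold change of the 7 role groups, at -1.18. SCD, the stearoyl-CoA desaturase that makes oleate and palmitoleate (ENSG00000099194, chromosome 10, 100347124 to 100364834, plus strand of GRCh38), was measured at 347, 375 and 367 FPKM in sh-NC. In the sh-CLGN libraries it was measured at 76.2, 79.7 and 80.1 FPKM, far below every control library. Its means were 363 ± 14.7 and 78.7 ± 2.16 FPKM (SD, n = 3), and it fell to 21.7% of control, with a log2 fold change of -2.19 ± 0.0497 (SE, adjusted p = 3.01e-07). By mean FPKM in sh-NC, SCD ranked 74 among the genes tested and was the most abundant of the 38 genes.

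FADS1 and FADS2, the delta-5 and delta-6 desaturases of polyunsaturated fatty acids, lie at the same locus on chromosome 11 and are transcribed in opposite directions. FADS1 (ENSG00000149485, 61799625 to 61829318, minus strand) was measured at 52.7, 54.2 and 52.4 FPKM in sh-NC and at 21.6, 22.3 and 22.3 FPKM in sh-CLGN. FADS2 (ENSG00000134824, 61792980 to 61867354, plus strand) was measured at 80.6, 80.1 and 72.8 FPKM in sh-NC and at 32.4, 33.8 and 35.3 FPKM in sh-CLGN. In neither gene did the groups overlap. The log2 fold changes were -1.23 ± 0.0435 (SE, adjusted p = 1.24e-06) for FADS1 and -1.18 ± 0.0576 (SE, adjusted p = 3.33e-06) for FADS2. The gene models overlap, and 5.57% of the exon bases of FADS1 and 4.89% of those of FADS2 are shared with other genes, so a small part of their reads cannot be assigned to one gene without strand.

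The other desaturases did not follow them. FADS3, a desaturase gene of the same cluster, was measured at 5.12, 4.77 and 4.65 FPKM in sh-NC and at 7.12, 7.19 and 7.22 FPKM in sh-CLGN, and rose by 0.48 ± 0.0566 on the log2 scale (SE, adjusted p = 0.000169). SCD5, the second stearoyl-CoA desaturase, was low in both groups, at 1.25 ± 0.0875 and 1.48 ± 0.0309 FPKM (SD, n = 3), with a log2 fold change of 0.14 and an adjusted p of 0.155. In all, 3 of the 5 desaturases fell, all 3 past both thresholds, and 1 rose, and their summed level was 486 to 515 FPKM in sh-NC and 139 to 146 FPKM in sh-CLGN. Most of this summed level was SCD.

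**Figure D2:**
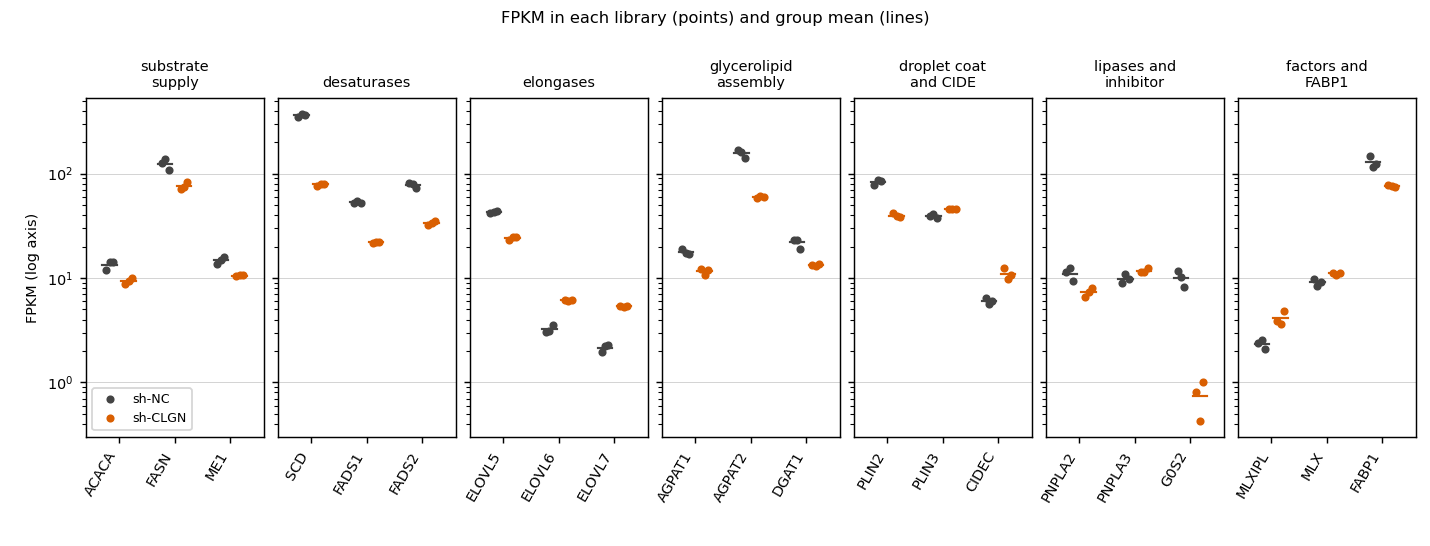
FPKM on a log axis in each of the 3 sh-NC (dark) and 3 sh-CLGN (orange) libraries, with lines at the group means, for the 3 genes with the smallest adjusted p in each role group. SCD went from 347 to 375 FPKM to 76.2 to 80.1 FPKM, and G0S2 from 8.28 to 11.7 FPKM to 0.423 to 1.00 FPKM.

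The 5 elongases were split, with 2 higher, 2 lower and 1 that did not pass. ELOVL7, which lengthens long acyl chains (ENSG00000164181, chromosome 5, 60751791 to 60844389, minus strand), was measured at 1.96, 2.23 and 2.27 FPKM in sh-NC and at 5.35, 5.31 and 5.44 FPKM in sh-CLGN. Every sh-CLGN library lay above every sh-NC library, on 125 to 161 reads in sh-NC and 398 to 415 reads in sh-CLGN. The mean was 2.49 times the control mean, with a log2 fold change of 1.01 ± 0.0666 (SE, adjusted p = 1.09e-05). Without sh-NC replicate 1 the log2 fold change was 0.97, just under the threshold on size, with an adjusted p of 6.72e-05. ELOVL6, which extends palmitate to stearate and so supplies the substrate of SCD, was measured at 3.01, 3.10 and 3.53 FPKM in sh-NC and at 6.17, 6.04 and 6.13 FPKM in sh-CLGN. It rose to 1.90 times the control mean, by 0.76 ± 0.067 on the log2 scale (SE, adjusted p = 4.16e-05).

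ELOVL5, which lengthens polyunsaturated chains, moved the other way. It was measured at 42.1, 43.0 and 43.9 FPKM in sh-NC and at 23.2, 24.7 and 24.6 FPKM in sh-CLGN, a fall of 0.81 on the log2 scale (SE 0.0473, adjusted p = 6.64e-06). ELOVL1, an elongase of very long saturated chains, fell from 46.9 ± 2.99 to 30.8 ± 0.888 FPKM (SD, n = 3, log2 fold change -0.59, adjusted p = 6.55e-05). ELOVL2, which acts on longer polyunsaturated chains, overlapped between the groups at 16.8, 18.3 and 20.7 FPKM against 18.1, 17.6 and 17.6 FPKM. Its log2 fold change of -0.05 had a 95% interval from -0.23 to 0.12 and an adjusted p of 0.547, but after the GC correction it was called lower at -0.26 (adjusted p = 0.00325). The 2 elongases that rose were measured between 1.96 and 6.17 FPKM, and the 2 that fell between 23.2 and 50.3 FPKM. The summed level of the 5 elongases was lower in sh-CLGN, at 83.5 to 85.4 FPKM against 112 to 115 FPKM.

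Of the 6 genes of substrate supply and chain synthesis, 4 fell and 2 did not pass, and none passed the threshold on size. FASN, the multienzyme that builds palmitate, was measured at 127, 139 and 107 FPKM in sh-NC and at 70.7, 74.1 and 82.6 FPKM in sh-CLGN. The groups did not overlap, although both varied by more than those of SCD, and FASN fell to 61.0% of control, by 0.70 on the log2 scale (SE 0.099, adjusted p = 0.000446). ME1, the malic enzyme that supplies NADPH, was measured at 13.6, 15.0 and 16.0 FPKM in sh-NC and at 10.5, 10.6 and 10.6 FPKM in sh-CLGN. ACACA, the acetyl-CoA carboxylase of the cytosol, was measured at 11.9, 14.2 and 14.1 FPKM in sh-NC and at 8.78, 9.30 and 9.96 FPKM in sh-CLGN. Neither gene overlapped between the groups, and the log2 fold changes were -0.45 (adjusted p = 0.000463) for ME1 and -0.47 (adjusted p = 0.0012) for ACACA.

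ACLY, which splits citrate into acetyl-CoA, moved least of the genes called in this group. It went from 104 ± 2.12 to 92.2 ± 3.91 FPKM (SD, n = 3), a log2 fold change of -0.17 (adjusted p = 0.0142). This call was lost under TPM scaling (-0.05, adjusted p = 0.496), without sh-CLGN replicate 1 (adjusted p = 0.0639) and without sh-CLGN replicate 2 (adjusted p = 0.0514). The direction of ACLY turned under scaling by read totals (0.02), quantile normalization (0.13) and the GC correction (0.02). ACSS2, which makes acetyl-CoA from acetate, had a log2 fold change of -0.17 (adjusted p = 0.0674). ACACB, the carboxylase of the mitochondrial surface whose product restrains fatty acid oxidation, was measured at 1.81 ± 0.110 and 2.20 ± 0.146 FPKM (SD, n = 3), with a log2 fold change of 0.19 and an adjusted p of 0.0631.

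In glycerolipid assembly 5 of 9 genes fell, none rose and 4 did not pass. AGPAT2, which adds the second acyl chain to give phosphatidic acid (ENSG00000169692, chromosome 9, 136673143 to 136687423, minus strand), was measured at 168, 163 and 140.1 FPKM in sh-NC and at 58.7, 61.0 and 60.1 FPKM in sh-CLGN. The groups were far apart, and AGPAT2 fell to 38.2% of control, by 1.37 on the log2 scale (SE 0.0706, adjusted p = 4.21e-06). AGPAT1, an enzyme of the same step, was measured at 18.9, 17.2 and 17.0 FPKM in sh-NC and at 12.1, 10.7 and 11.8 FPKM in sh-CLGN (log2 fold change -0.57, adjusted p = 0.000155). Exons of neighbouring genes share 30.2% of its exon bases, so its value is less certain than that of AGPAT2. AGPAT3 had a log2 fold change of -0.51 (adjusted p = 0.000333), so that all 3 acyltransferases of this family among the 38 genes fell. Outside the 38 genes, AGPAT5 did not pass (log2 fold change -0.17, adjusted p = 0.104). AGPAT4 did not reach the filter, with means of 0.53 FPKM in sh-NC and 0.97 FPKM in sh-CLGN.

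DGAT1 and DGAT2 carry out the last step, which turns diacylglycerol into triacylglycerol. DGAT1 was measured at 23.3, 23.3 and 19.1 FPKM in sh-NC and at 13.3, 13.0 and 13.7 FPKM in sh-CLGN, a log2 fold change of -0.67 ± 0.0804 (SE, adjusted p = 0.000195). DGAT2 fell less, from 9.81 ± 0.266 to 7.53 ± 0.266 FPKM (SD, n = 3, log2 fold change -0.34, adjusted p = 0.000741). The difference between these 2 falls was not tested. The 3 lipins, phosphatidate phosphatases of the step before, did not pass, with log2 fold changes of -0.14 for LPIN1, 0.01 for LPIN2 and 0.10 for LPIN3, and the 95% interval of LPIN2 ran from -0.11 to 0.12. These outcomes depended on the setting. LPIN1 was called lower under quantile normalization (-0.28, adjusted p = 0.0184) and with voom (-0.23, adjusted p = 0.049). LPIN2 was called higher under quantile normalization (0.27, adjusted p = 0.00209) and scaling by read totals (0.19, adjusted p = 0.0103). LPIN3 was called higher under scaling by read totals (0.24, adjusted p = 0.0183) and after the GC correction (0.35, adjusted p = 0.00502). GPAM, the mitochondrial acyltransferase of the first step, overlapped between the groups at 8.43 ± 1.02 and 9.98 ± 0.774 FPKM (SD, n = 3, log2 fold change 0.22, adjusted p = 0.0595).

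Of the 5 droplet surface proteins tested, 2 rose, 2 fell and 1 did not pass, and the deepest change was that of PLIN2. PLIN2, the main perilipin of liver cells (ENSG00000147872, chromosome 9, 19108375 to 19149290, minus strand), was measured at 78.4, 85.9 and 84.4 FPKM in sh-NC and at 41.8, 39.0 and 38.1 FPKM in sh-CLGN. The groups did not overlap, and PLIN2 fell to 47.8% of control, with a log2 fold change of -1.05 ± 0.0564 (SE, adjusted p = 5.03e-06). PLIN3, a perilipin found in many tissues, was measured at 39.5, 41.0 and 37.3 FPKM in sh-NC and at 46.0, 45.6 and 45.6 FPKM in sh-CLGN. It rose by a small amount, 0.22 ± 0.0489 on the log2 scale (SE, adjusted p = 0.00511), and in sh-CLGN its level lay above that of PLIN2 in every library, while in sh-NC it lay below. FPKM divides by all annotated exon bases, 5086 for PLIN2 and 2813 for PLIN3, so levels of different genes can be compared only roughly. By reads PLIN2 stayed above PLIN3 in sh-CLGN, at 3130 to 3608 against 2072 to 2196. In addition, 17.8% of the exon bases of PLIN3 are shared with another gene.

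PLIN4 and PLIN5 were both under 3 FPKM in every library. PLIN4 overlapped between the groups and did not pass (log2 fold change 0.21, adjusted p = 0.0673). PLIN5, a perilipin of oxidative tissues, was called lower at -0.22 (adjusted p = 0.0487) on 103 to 129 reads. This call was lost without any one of 5 of the 6 libraries, with adjusted p-values of 0.143 without sh-NC replicate 1, 0.0825 without sh-NC replicate 2, and 0.143, 0.122 and 0.0508 without sh-CLGN replicates 1, 2 and 3. CIDEC, which drives the fusion of droplets, was measured at 6.36, 5.69 and 6.01 FPKM in sh-NC and at 12.5, 9.88 and 10.6 FPKM in sh-CLGN. It rose to 1.83 times the control mean, by 0.77 ± 0.0869 on the log2 scale (SE, adjusted p = 0.000143). CIDEB, its relative in liver, is listed at 0 in all 6 libraries, and 100% of its exon bases are shared with exons of LTB4R2 and NOP9, so no level can be given for it.

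The droplet lipases and their inhibitor held 1 gene that rose and 2 that fell. The largest fold of the 36 genes was that of G0S2, the small protein that binds and inhibits the lipase ATGL (ENSG00000123689, chromosome 1, 209675420 to 209676388, plus strand). It was measured at 11.7, 10.2 and 8.28 FPKM in sh-NC and at 0.817, 0.423 and 1.00 FPKM in sh-CLGN. These values rest on 111 to 141 reads in sh-NC and 6 to 14 reads in sh-CLGN, so the low group is imprecise, and the gene passed the filter through its sh-NC libraries. G0S2 fell to 7.43% of control, with a log2 fold change of -2.66 ± 0.152 (SE, adjusted p = 6.03e-06). With a pseudocount of 0.1 the log2 fold change was -3.64, and with voom on the recovered reads it was -3.75.

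PNPLA2, which encodes ATGL itself, also fell, though far less. It was measured at 11.4, 12.4 and 9.30 FPKM in sh-NC and at 6.60, 7.30 and 8.06 FPKM in sh-CLGN (log2 fold change -0.53 ± 0.107, SE, adjusted p = 0.00296). PNPLA3, a related lipid hydrolase of liver droplets, was measured at 8.94, 10.9 and 9.76 FPKM in sh-NC and at 11.5, 11.3 and 12.6 FPKM in sh-CLGN, and was called higher by 0.24 (adjusted p = 0.0251). The call for PNPLA3 was lost without sh-NC replicate 1 (0.18, adjusted p = 0.0777), without sh-NC replicate 3 (0.23, adjusted p = 0.0501) and without sh-CLGN replicate 3 (0.19, adjusted p = 0.086). It was also lost when no filter was applied (adjusted p = 0.0685).

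Of the remaining regulators and carriers, 2 rose and 1 fell. MLXIPL, which encodes the sugar-responsive factor ChREBP, was measured at 2.37, 2.55 and 2.11 FPKM in sh-NC and at 3.89, 3.59 and 4.88 FPKM in sh-CLGN. It rose to 1.76 times the control mean, by 0.61 ± 0.105 on the log2 scale (SE, adjusted p = 0.00126), with the groups apart. MLX, its partner on DNA, was measured at 9.76, 8.44 and 9.13 FPKM in sh-NC and at 11.2, 10.8 and 11.2 FPKM in sh-CLGN (log2 fold change 0.26, adjusted p = 0.00703). FABP1, the fatty acid carrier of the liver cytosol, was measured at 147, 116 and 124 FPKM in sh-NC and at 78.5, 76.5 and 73.7 FPKM in sh-CLGN. It fell by 0.74 on the log2 scale (SE 0.085, adjusted p = 0.000152). THRSP, a lipogenic gene of liver and fat, was not tested, since it had at most 3 reads in any library and lay at 0.156 FPKM or below.

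The wider pathway was described by 84 further genes, of which 64 passed the filter. Of these 12 rose, 32 fell and 20 did not pass, beside 26.7% and 39.0% of all genes tested. Past both thresholds none rose and 6 fell, beside 3.09% and 3.19% of all genes tested. The counts of each list below are to be read beside the same shares. Their median log2 fold change was -0.16. Among the regulators 7 rose and 11 fell of 21 tested. SREBF1, which encodes SREBP-1, was measured at 36.0, 37.6 and 28.9 FPKM in sh-NC and at 11.2, 11.9 and 12.8 FPKM in sh-CLGN. It fell to 35.1% of control, by 1.43 on the log2 scale (SE 0.0984, adjusted p = 1.3e-05). On the same scale SREBF2 (-0.87), SCAP (-0.84) and MBTPS1 (-0.66) were also called lower, and INSIG2 (0.54) and MBTPS2 (0.46) higher. MLXIP, the relative of MLXIPL and another partner of MLX, went the opposite way from MLXIPL, from 5.40 ± 0.487 to 2.17 ± 0.114 FPKM (SD, n = 3, log2 fold change -1.01, adjusted p = 2.05e-05).

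INSIG1, which holds SREBP in the endoplasmic reticulum and is itself an SREBP target, overlapped between the groups at 16.4, 16.7 and 17.8 FPKM against 17.0, 15.4 and 15.9 FPKM. Its log2 fold change was -0.07 with a 95% interval from -0.20 to 0.06 (adjusted p = 0.307), and its sign turned under TPM scaling, scaling by read totals, quantile normalization and the GC correction. NR1H3, which encodes the oxysterol receptor LXR-alpha, had a log2 fold change of -0.27 (adjusted p = 0.0101), a call that was lost under the same 4 settings. The largest rises among the regulators were those of PRKAA1 and PRKAA2, the catalytic subunits of AMPK, the kinase that inactivates acetyl-CoA carboxylase. PRKAA1 went from 24.4 ± 3.18 to 42.6 ± 0.437 FPKM (SD, n = 3, log2 fold change 0.79, adjusted p = 0.000101). PRKAA2 was low and passed the filter only through its sh-CLGN libraries, at 0.626 ± 0.167 and 1.48 ± 0.142 FPKM (SD, n = 3, log2 fold change 0.61, adjusted p = 0.00155), and its call was lost after the GC correction (0.23, adjusted p = 0.0558). The other AMPK genes of the list went both ways on the log2 scale. STK11 (-0.75) and PRKAB1 (-0.36) were called lower, PRKAB2 (0.27), PRKAG2 (0.32) and CAB39 (0.17) higher, and PRKAG1 (0.015) did not pass. PRKAG2 also passed the filter only through its sh-CLGN libraries.

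Of the 19 further acyl chain enzymes tested, 3 rose and 10 fell. SLC27A2, a fatty acid transporter and acyl-CoA synthetase, fell to 33.7% of control (log2 fold change -1.36, adjusted p = 4.74e-06). ACSL3, the acyl-CoA synthetase found on nascent droplets, fell from 43.0 ± 2.45 to 18.6 ± 0.616 FPKM (SD, n = 3, log2 fold change -1.16, adjusted p = 3.16e-06). ACSS3, an acyl-CoA synthetase of mitochondria, rose by 0.99 (adjusted p = 1.05e-05) and HACD2, a dehydratase of the elongation cycle, by 0.63 (adjusted p = 0.000171), both on the log2 scale. Of 10 further glycerolipid enzymes tested, 1 rose and 3 fell. GPAT3 and GPAT4, the acyltransferases of the first step in the endoplasmic reticulum, had log2 fold changes of -0.99 (adjusted p = 1.31e-05) and -0.41 (adjusted p = 0.00033). GK, the glycerol kinase, rose by 0.34 on the log2 scale (adjusted p = 0.00559).

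Of 14 further droplet proteins and lipases tested, 1 rose and 8 fell. The largest falls were those of LIPA, the acid lipase of lysosomes, from 12.9 ± 1.52 to 5.71 ± 0.277 FPKM (SD, n = 3, log2 fold change -1.05, adjusted p = 2.86e-05), and of MGLL, the monoacylglycerol lipase, from 15.2 ± 0.945 to 6.96 ± 0.211 FPKM (SD, n = 3, log2 fold change -1.02, adjusted p = 6.78e-06). RAB18, a small GTPase of the droplet surface, rose by 0.59 on the log2 scale (adjusted p = 5.63e-05).

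**Figure D3:**
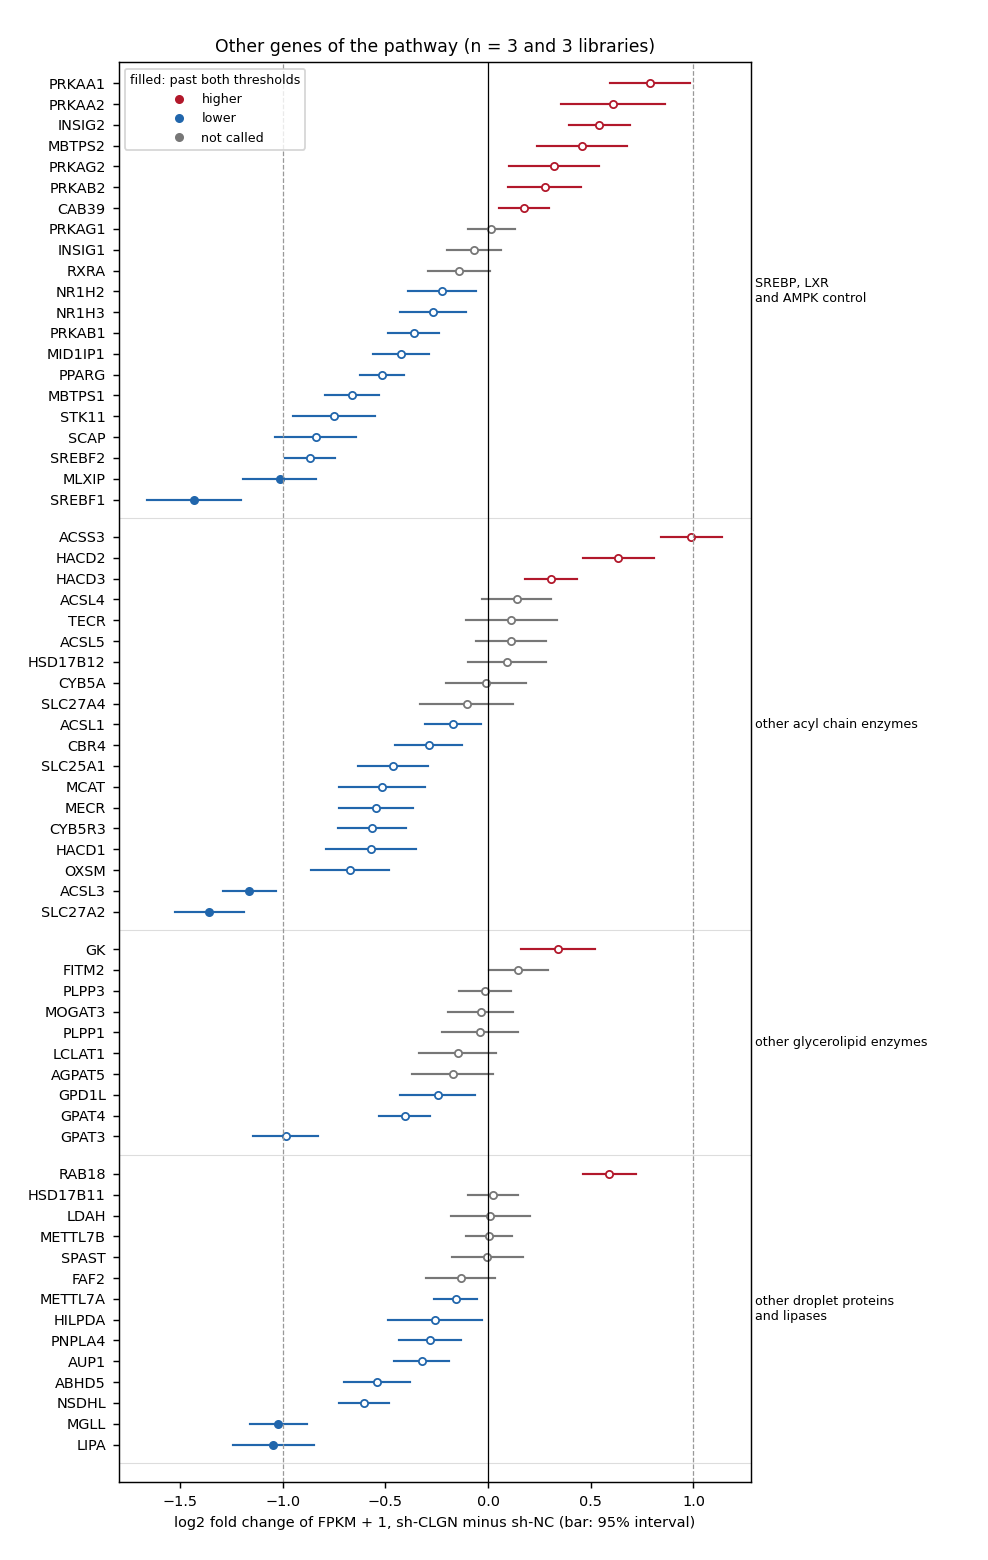
Log2 fold change of FPKM + 1 (sh-CLGN minus sh-NC, n = 3 and 3 libraries) of the 64 further pathway genes tested, in 4 lists, with bars for the 95% interval and colours as for the 36 genes above. SREBF1 at -1.43 and SLC27A2 at -1.36 lie farthest to the left on this scale and ACSS3 at 0.99 farthest to the right.

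Scaling and base composition moved with these values. The median log2 fold change of all genes tested was -0.0765 as reported, 0.0324 under TPM scaling, 0.0832 under scaling by read totals and -0.00418 after the GC correction. The 36 genes then had 11, 14 and 12 called higher and 17, 17 and 18 called lower under the 3 alternatives. Calls over all 13074 genes moved as well, to 4285, 4957 and 4268 higher and 3923, 3421 and 4470 lower. Higher calls made up 39.3%, 45.2% and 40.0% of the calls among the 36 genes. Over all genes tested they made up 52.2%, 59.2% and 48.8%. Relative to the median of all genes, their own median was -0.12 as reported and -0.18, -0.14 and -0.06 under these settings. Across the 13074 genes the log2 fold change was lower in genes of higher GC content (Spearman's rho -0.32), and across the 36 genes rho was -0.10. Both are descriptions across genes, which are not independent replicates and share libraries and scaling. The median GC content of the 36 genes was 55.5% against 49.5% for all genes tested. After the GC correction SCD, FADS1, AGPAT2 and G0S2 remained past both thresholds, at -2.14, -1.02, -1.05 and -2.44 on the log2 scale, whereas FADS2 was at -0.96, PLIN2 at -0.97 and ELOVL7 at 0.87. TPM scaling left 5 genes lower past both thresholds, without PLIN2 (-0.93), and scaling by read totals left 4, without FADS2 (-0.99) and PLIN2 (-0.85). Quantile normalization left 3, SCD, AGPAT2 and G0S2, with FADS1 at -0.96, FADS2 at -0.88, PLIN2 at -0.77 and ELOVL7, the gene higher past both, at 0.997. Under each of these settings the 6 genes were still called lower at adjusted p.

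**Figure D4:**
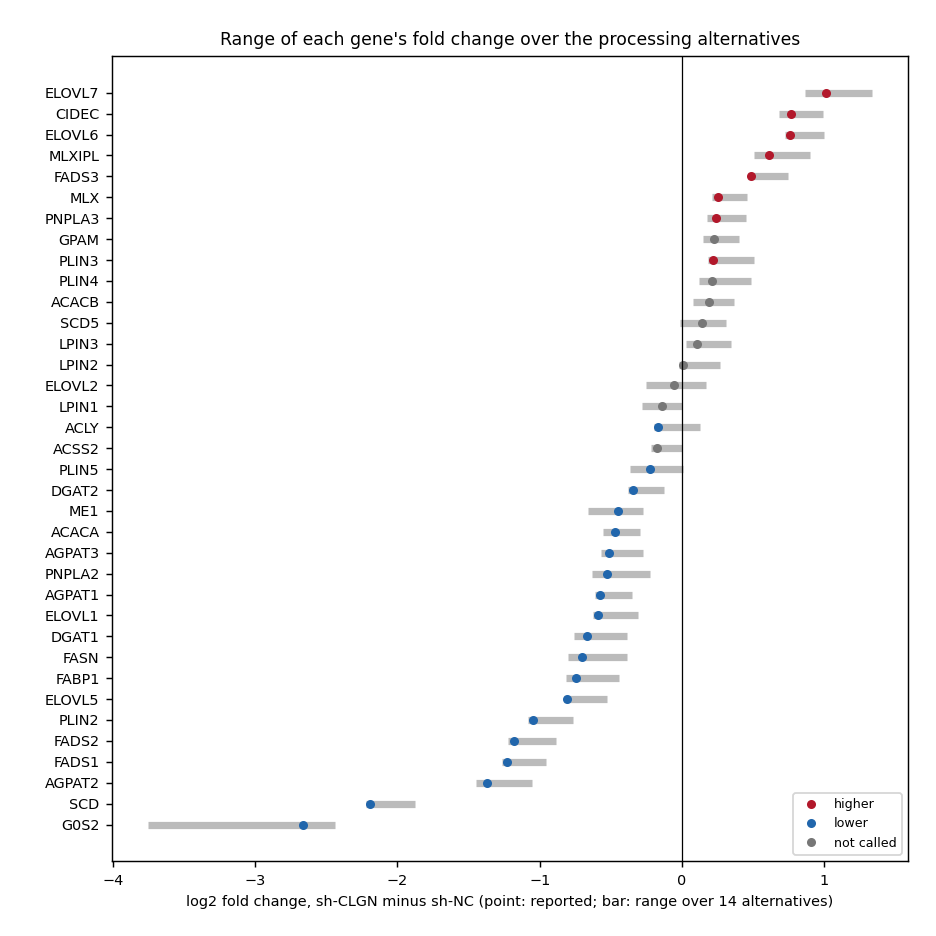
Reported log2 fold change (points, coloured by call) of the 36 tested genes, sorted, with bars from the lowest to the highest value over the 14 processing alternatives. The bars of SCD, FADS1, FADS2, AGPAT2, PLIN2 and G0S2 lie wholly below 0, and that of G0S2 reaches from -3.75 to -2.44.

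The hairpin's heptamer sites, shown earlier for SCD, G0S2 and AGPAT2, were set beside the calls. The 6 genes with a site had a median log2 fold change of -0.76. This median lies in a gap between AGPAT2 at -1.37 and LPIN1 at -0.14, so it describes none of the 6. Of the 6, 3 were lower and none higher. The 30 genes without a site had a median of -0.20, with 16 lower and 8 higher. Over all genes tested with a 3′ UTR the medians were -0.15 with a site and -0.12 without. FADS1, FADS2 and PLIN2, which also fell past both thresholds, held none of the 3 heptamers, and neither did FASN. ACACB, GPAM and LPIN1, which held sites, did not pass the test. With voom on the recovered reads all 3 were called, ACACB (0.28, adjusted p = 0.00938) and GPAM (0.24, adjusted p = 0.0137) as higher and LPIN1 (-0.23, adjusted p = 0.049) as lower. A match of 7 letters is a description and no sign of binding, and with 1 hairpin a response to the loss of calmegin and a response to the hairpin itself cannot be told apart in these data.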

How the data were processed

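RNA from 6 Hep-G2 libraries was prepared with a NEBNext Ultra kit per the labels. The submitters' processing notes name HISAT2 2.0.5, featureCounts and GRCh38, while strandedness and the authors' test are not given in the sources used here. The authors deposited FPKM per gene and library, with gene lengths as another column, and the 58735 gene positions equalled those of GENCODE 29. FPKM times gene length, divided by the worth of a read in each library, lay within 0.01 of a whole number for 100% of values, which gave 14955816 to 16244639 reads per library, and a single read over 1 kb of gene length came to 0.0589 to 0.0717 FPKM depending on the library. Values at or under 3 reads were treated as a floor, which covers counting error only. No unmapped sample column was present.

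Log2(FPKM + 1) was fitted for all genes with limma 3.58.1 in R 4.3.3, using eBayes with an intensity trend. The fit had no covariate. It took the 13074 genes that reached 1 FPKM in 3 or more libraries. The pseudocount makes the fold changes of low genes too small. Two-sided p-values were adjusted by Benjamini-Hochberg across those genes. No count model was the main test, since the table holds no counts. Values in every library are given for genes past both thresholds and for the 3 smallest adjusted p-values of each role group. Of the other pathway genes, the 2 largest rises and falls of each list are named, with SREBF1, NR1H3 and INSIG1. Further SREBP and AMPK genes, AGPAT4 and AGPAT5 are given beside them. The members and lists were chosen with earlier results of these data known. Alternatives were a pseudocount of 0.1, no filter, TPM, read-total and quantile scaling, voom on recovered reads, a GC correction (lowess span 0.3, GC content for 99.95% of tested genes), a replicate block, and fits without 1 library at a time. 3′ UTRs of at least 50 bases were searched. The fit was tested on simulated data. Sequences were handled in Python 3.11.15 (pandas 2.3.3, numpy 2.4.6, scipy 1.17.1), and matplotlib 3.10.9 drew the figures. No 2 libraries agreed within sampling noise, with a chi-square per gene of 2.04 to 7.14 within groups and 55.6 to 67.7 between them.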

Additional observations from a re-analysis of the deposited data

How the results depend on the processing

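Of the 36 tested genes, 24 kept their call and direction under all 14 alternatives. The other 12 were ACLY, PLIN5 and PNPLA3, whose calls were lost under some, and the 9 genes that did not pass, each of which was called under at least 1. GPAM was called higher under 7, PLIN4 under 5 and ACACB under 4 alternatives. Scaling by read totals gave 14 genes called higher and 21 of the further pathway genes, and no filter gave 20 of the latter. Over all genes tested, the 1st of these settings called 4957 of 13074 higher and the other 4538 of 33474. Under quantile normalization 0 genes were higher and 3 lower past both thresholds, and under the GC correction 0 were higher. Leaving out each library gave 0 to 1 higher past both thresholds. The sign turned for ELOVL2 (0.0694 under TPM scaling, 0.131 under read totals, 0.171 under quantile normalization, and -0.122 to 0.0226 when each library was left out, above 0 without sh-NC replicate 3, but -0.256 and called lower after the GC correction), for INSIG1 (0.0522, 0.114 and 0.145 under the same scalings, 0.0538 after the GC correction), for ACLY (0.0214 under read totals, 0.126 under quantile normalization, 0.0227 after the GC correction) and for SCD5 (-0.0179 under quantile normalization). After the GC correction it also turned for ACSS2 (0.00251), LPIN1 (0.00225) and PLIN5 (0.00906). LPIN2 lay between -0.0221 and 0.0321 when each library was left out, below 0 without sh-NC replicate 1 or sh-CLGN replicate 2, and was called higher under quantile normalization (0.267) and read totals (0.194). The cause was not tested.

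Same-numbered libraries did not deviate together (correlations -0.02, -0.05 and -0.15). Such correlations cannot show whether these libraries were cultured or prepared together. With the replicate number as a block, 9 genes were called higher and 18 lower, with 1 and 6 past both thresholds, and 11 and 29 of the further pathway genes. Over all 13074 genes this fit called 3281 higher and 4757 lower. GPAM was then called (0.22, adjusted p = 0.0271) and PLIN5 was not (-0.22, adjusted p = 0.101). Depth limits G0S2, with 6 to 14 reads in sh-CLGN, and THRSP, with at most 3. Exons shared with other genes limit CIDEB, AGPAT1, PLIN5, MLX and PLIN3, where counting by strand is not given.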
